A study of Mus musculus with 41 samples.

Results

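Members of the vacuolar proton pump, the V-ATPase, were followed through 41 RNA libraries of sorted mouse microglia, the resident macrophages of the brain. The 10 members were taken by symbol from a table of 24015 genes: Atp6v1a, Atp6v1b2, Atp6v1c1, Atp6v1d and Atp6v1h of the V1 sector, Atp6v0a1, Atp6v0c, Atp6v0d1 and Atp6v0d2 of the V0 sector, and the accessory gene Atp6ap1. All 10 symbols were found. A further 15 V-ATPase genes that the table lists were described beside them.

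Cells positive for CD11b and Tmem119 were sorted from cerebella of perfused mice once myelin had been removed. The series' design text counts mice as the replicates. NPC mice carried the strain name BALB/cNctr-Npc1m1N/J, a model of Niemann-Pick type C disease with a mutated Npc1 gene, and WT mice the strain name balb/c. Untreated NPC and WT cells were taken at ages of 1, 3, 6 and 9 weeks, 4 libraries to a group except NPC at 9 weeks with 3. In a second arm, 5 libraries of NPC mice that received PLX5622 were set against 5 of NPC control mice, all 9 weeks old; PLX5622 inhibits the receptor kinase Csf1r, on which microglia depend. All groups shared the sort and the BALB/c background. The zygosity of the Npc1 allele and the dose and length of PLX5622 treatment are not given in the sources used here, and the sort keeps only cells that still carry Tmem119.

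The V-ATPase is a rotary machine that spends ATP to pump protons into lysosomes, endosomes and phagosomes. Its V1 sector sits in the cytosol and holds the ATP-splitting A and B subunits, a central rotor stalk and the outer stalks; its V0 sector lies in the membrane and holds the a subunit, the ring of proteolipid c subunits and the d subunit that joins ring to rotor. The acid it makes keeps lysosomal hydrolases active, and the pump also serves as a docking place for the nutrient-sensing Ragulator and Rag GTPases. In Niemann-Pick type C disease cholesterol cannot leave the lysosome, and in microglia the pump works in the organelles that digest engulfed myelin and debris.

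Libraries held 23.2 to 40.5 M reads, with a median of 30.5 M, as recovered from the deposited normalized counts (gene counts divided by 1 size factor per library). Npc1 lay at 291 to 787 normalized counts in the NPC libraries, against 2606 to 7386 in WT libraries, so every library matched its genotype label. The microglial genes Tmem119 and Itgam, which encodes CD11b, were far above 0 in every library: the lowest group mean was 74750.1 ± 20202 normalized counts for Tmem119 (NPC at 1 week; SD, n = 4) and 26436 ± 6504 for Itgam (PLX5622; SD, n = 5). Of 10 microglia markers, 0, 5, 4 and 6 were called lower (adjusted p under 0.05) in NPC than in WT at 1, 3, 6 and 9 weeks, and 0, 1, 1 and 0 higher. Over all genes tested, 0.577%, 12.6%, 6.5% and 7.77% were called lower at these ages, and 0.876%, 14.3%, 8.76% and 11.2% higher. One library stood apart: replicate C of NPC at 3 weeks was the highest of its group for 6 of the 9 members tested. Of the 41 libraries it had the largest sum of normalized counts, 37.2 M, and the fewest genes with 3 or more reads, 12003. In NPC at 6 weeks, replicate B or C was the highest for 9 of 9 members. Their sums were 34.3 and 34.0 M, against 31.1 and 30.0 M in replicates A and D. How often these libraries were the highest over all genes was not counted. Summed markers of other cells in NPC libraries at 6 weeks were 10080 to 15705 normalized counts for 12 astrocyte genes, against 9757 to 10969 in WT, and 6836 to 19847 for 12 oligodendrocyte genes, against 5522 to 10103 in WT. For the astrocyte and the oligodendrocyte genes, replicate B was the highest of the NPC libraries at 6 weeks. Sums of 15 neuron markers stayed between 74.4 and 1191 in the 41 libraries. At 9 weeks NPC libraries lay wholly above WT for 3 lists. Summed border-associated macrophage markers were 21798 to 22158 in NPC and 15123 to 20657 in WT, astrocyte markers 9474 to 12789 in NPC and 8499 to 9287 in WT, and oligodendrocyte markers 8437 to 17598 in NPC and 6748 to 7135 in WT. Of the 10 macrophage markers 0, 3, 3 and 4 were called higher in NPC at 1, 3, 6 and 9 weeks, and 0, 0, 2 and 0 lower. At the same ages 0, 2, 2 and 1 of the 12 astrocyte markers were called higher and 0 lower. For the 12 oligodendrocyte markers 0, 0, 0 and 1 were higher and 0 lower. Beside the shares over all genes, the astrocyte and oligodendrocyte counts set these lists little apart. The median log2 change at 9 weeks was 1.46 for the astrocyte and 0.085 for the oligodendrocyte markers, so the sums do not describe each marker. The part of these shifts in the V-ATPase results was not tested.

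NPC microglia held more V-ATPase RNA than WT microglia. The difference passed the threshold at 1 week for Atp6v1a alone, and from 3 weeks for most of the V1 members and for Atp6v0d1. A gene was tested if it reached 10 normalized counts in at least 3 libraries of a fit, and was called at an adjusted p under 0.05 (limma, Benjamini-Hochberg over 14046 genes). Of the 10 members, 9 were tested; Atp6v0c was below the filter. At 3 weeks 7 members were higher and 0 lower in NPC, at 6 weeks 6 and 0, and at 9 weeks 5 and 0, after 1 and 0 at 1 week. At 1 week 5 of the 9 had an unadjusted p under 0.05, beside 1642 of the 14046 genes. Over all genes tested, the share called was 1.45% at 1 week, 26.9% at 3 weeks, 15.3% at 6 weeks and 19% at 9 weeks, the share called higher was 0.876%, 14.3%, 8.76% and 11.2%, and the share called lower 0.577%, 12.6%, 6.5% and 7.77%. The median log2 change of the tested members was 0.33, 0.82, 0.52 and 0.65 at 1, 3, 6 and 9 weeks, beside 0.00, -0.04, -0.02 and 0.03 over all genes tested. Atp6v0d2 passed the filter only through the groups in which it was high, and it is one of the members called at 6 and 9 weeks; of the 8 other tested members 1, 7, 5 and 4 were called higher at 1, 3, 6 and 9 weeks. These are totals per sorted sample, in which fewer cells of a kind and less RNA per cell cannot be told apart.

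The plot of all 10 genes by group shows a step between the genotypes, without overlap at any age, for Atp6v1a, Atp6v1b2 and Atp6v0d1. In the other genes the libraries overlapped at some or all ages. Atp6v0c stayed near 0, and the mean of Atp6v0d2 was lower in NPC at 1 and 3 weeks.

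**Figure D1:**
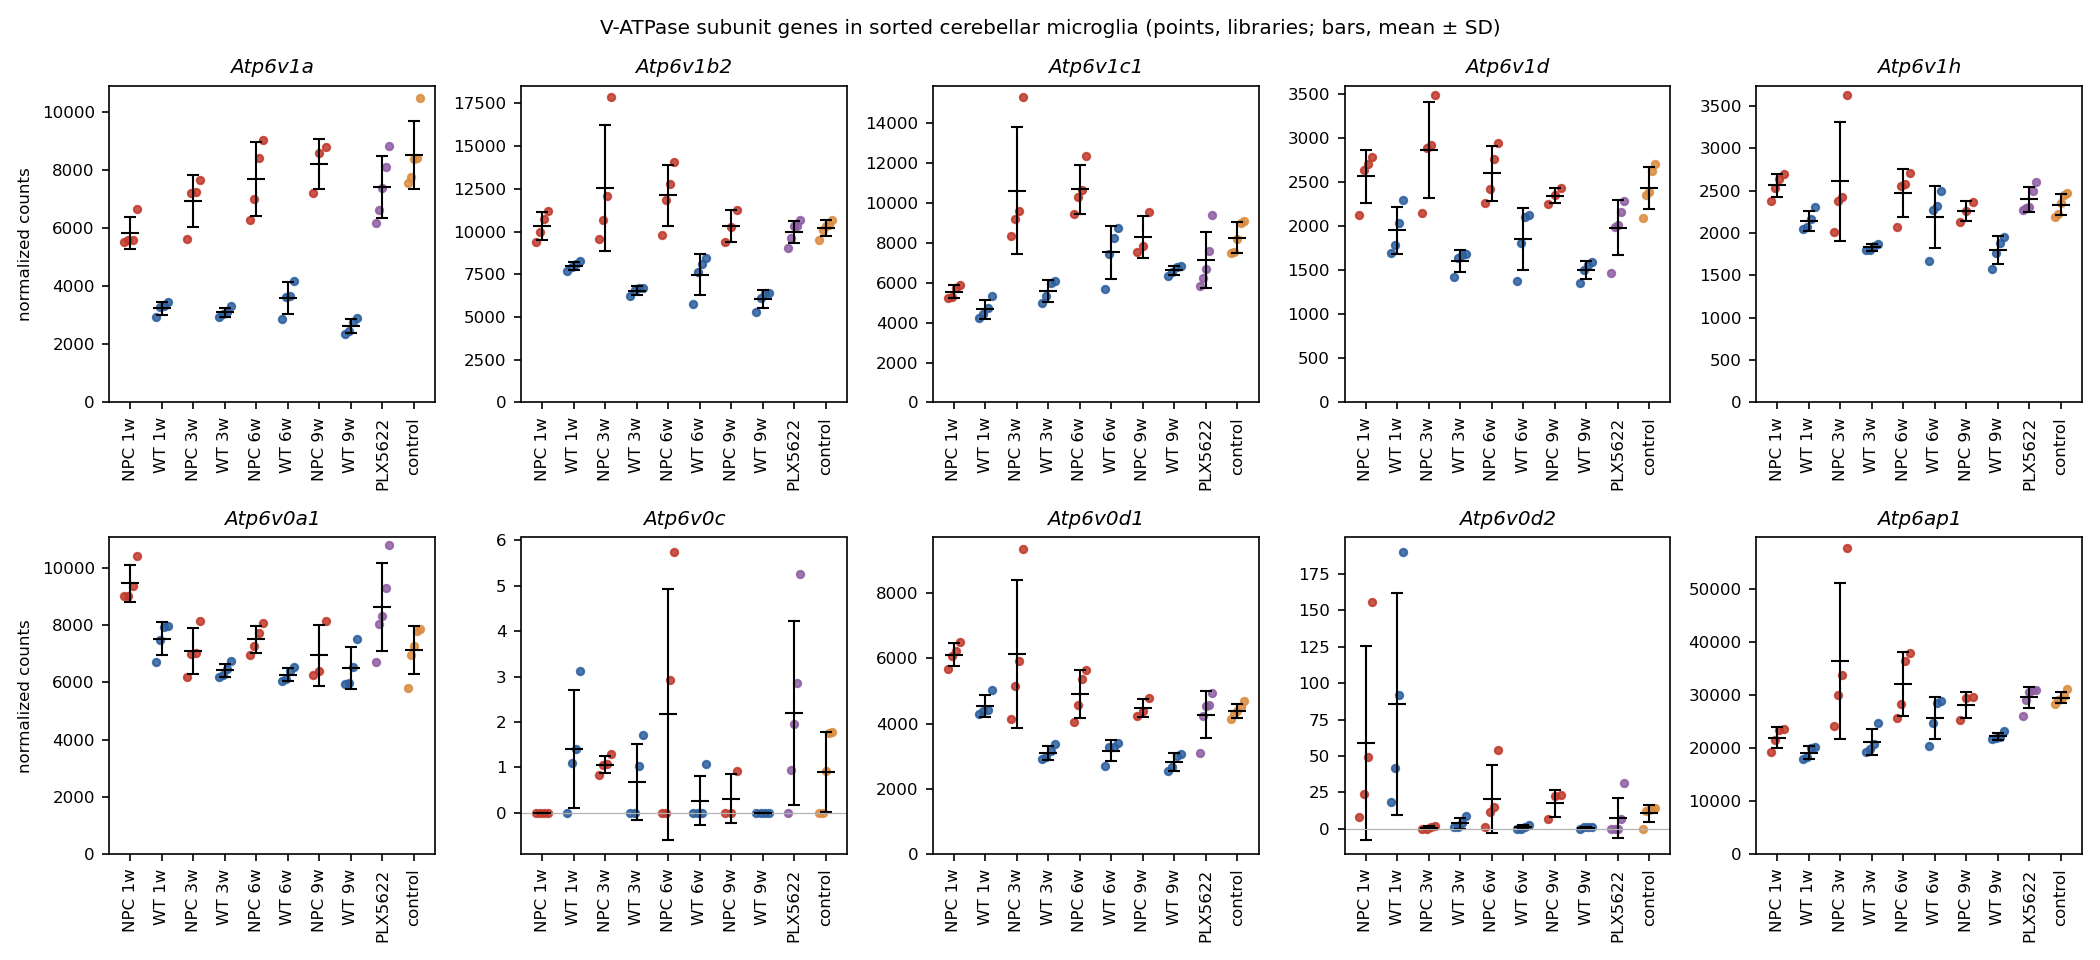
Normalized counts (vertical axis, one scale per gene) of the 10 members in each library (points) of the 10 groups (horizontal axis; NPC red, WT blue, PLX5622 purple, control orange), with the mean ± SD in black. Atp6v1a shows NPC libraries between 5518 and 9036 and WT libraries between 2369 and 4178 over the 4 ages.

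Atp6v1a encodes the A subunit, which carries the site where ATP is split. It had 5583, 5518, 5611 and 6661 normalized counts in NPC libraries at 1 week, against 2936, 3270.0, 3305 and 3469 in WT. At 9 weeks it had 8593, 8797 and 7229 in NPC and 2464, 2896, 2783 and 2369 in WT. At 1, 3, 6 and 9 weeks the lowest NPC library lay above the highest WT library of its age. NPC was higher 1.80-fold (95% interval 1.51 to 2.14, limma adjusted p = 0.000255) at 1 week and 2.22-fold (95% interval 1.86 to 2.64, limma adjusted p = 1.14e-07) at 3 weeks. It was higher 2.14-fold (95% interval 1.79 to 2.55, limma adjusted p = 2.26e-07) at 6 weeks and 3.12-fold (95% interval 2.58 to 3.77, limma adjusted p = 3.56e-10) at 9 weeks. Each of these 4 calls held under every alternative run, also without replicate C of NPC at 3 weeks and without replicates B and C of NPC at 6 weeks. The larger change at 9 than at 3 weeks, a log2 difference of 0.49 (95% interval 0.12 to 0.87), did not pass the test of the difference over all genes (limma adjusted p = 0.281).

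Atp6v1b2 encodes the B subunit that alternates with A in the ATPase head, in the isoform found in most tissues. Its NPC libraries held 9582, 12082, 17886 and 10668 normalized counts at 3 weeks, against 6594, 6705, 6200.4 and 6692 in WT, with replicate C of NPC well above the rest of its group. At 9 weeks they held 10260.0, 11276 and 9416, against 6413, 6112, 6423 and 5314 in WT. The genotypes did not overlap at any of the 4 ages. Atp6v1b2 was 1.86-fold (95% interval 1.52 to 2.28, limma adjusted p = 3.93e-05) higher at 3 weeks, 1.62-fold (95% interval 1.33 to 1.99, limma adjusted p = 0.000787) at 6 weeks and 1.70-fold (95% interval 1.37 to 2.11, limma adjusted p = 0.000523) at 9 weeks. At 1 week the fold of 1.29 (95% interval 1.05 to 1.58, limma adjusted p = 0.261) was not called. Without NPC 6w replicates B and C, the call at 6 weeks was lost (limma adjusted p = 0.0586).

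Among the members, the stalk genes of V1 had smaller fold changes than Atp6v1a, a difference between genes that was not tested. Atp6v1d, a part of the central rotor, held 2426, 2253 and 2347 normalized counts in NPC libraries at 9 weeks, against 1589, 1355, 1496 and 1557 in WT, a gap wider than the spread of either group. It was 1.76-fold (95% interval 1.44 to 2.15, limma adjusted p = 0.000133) higher at 3 weeks, 1.41-fold (95% interval 1.16 to 1.73, limma adjusted p = 0.0146) at 6 weeks and 1.56-fold (95% interval 1.26 to 1.94, limma adjusted p = 0.00294) at 9 weeks, and its fold at 1 week was 1.32 (95% interval 1.08 to 1.61, limma adjusted p = 0.203). The call at 6 weeks was lost without WT replicate C, the lowest of its group (limma adjusted p = 0.0857), without NPC replicate B (0.0641), without NPC replicates B and C (0.280) and when only the 6-week groups were fitted (0.0532).

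Atp6v1c1, the C subunit that clamps V1 onto the membrane sector when the pump assembles, held 8362, 9212, 15301 and 9570.1 normalized counts in NPC at 3 weeks, against 5327, 5981, 4969 and 6103 in WT. At 9 weeks it held 7526, 9519 and 7820.5 in NPC and 6541, 6846, 6768 and 6333 in WT. Libraries of the genotypes did not overlap at 3, 6 or 9 weeks, but the gap at 9 weeks was narrow. Atp6v1c1 was higher by 0.89 on the log2 scale (95% interval 0.59 to 1.18, limma adjusted p = 6.43e-05) at 3 weeks and 1.43-fold (95% interval 1.17 to 1.76, limma adjusted p = 0.0137) at 6 weeks. Its folds of 1.19 (95% interval 0.967 to 1.46, limma adjusted p = 0.557) at 1 week and 1.25 (95% interval 0.997 to 1.56, limma adjusted p = 0.169) at 9 weeks were not called, though at 9 weeks it was called when only those groups were fitted (limma adjusted p = 0.0237). The call at 6 weeks was lost when WT replicate C was left out (0.0781), when NPC replicate C was (0.0650), and without NPC replicates B and C (0.217).

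Atp6v1h, the H subunit that holds a detached V1 silent, ranged over 2015 to 3635 normalized counts in NPC at 3 weeks, against 1799 to 1876 in WT. It was 1.39-fold (95% interval 1.15 to 1.69, limma adjusted p = 0.0116) higher at 3 weeks. That call rested on replicate C of NPC at 3 weeks, which held 3635 against 2427 in the next library; without it the limma adjusted p was 0.0734, and with only the 3-week groups fitted 0.139. Its folds at 1, 6 and 9 weeks were 1.19 (0.985 to 1.45), 1.14 (0.939 to 1.38) and 1.26 (1.02 to 1.55; 95% intervals in each case), with limma adjusted p = 0.492, 0.391 and 0.116. Without replicate C of NPC at 3 weeks, whose spread enters the shared fit, Atp6v1h was called higher at 9 weeks (0.0325).

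**Figure D2:**
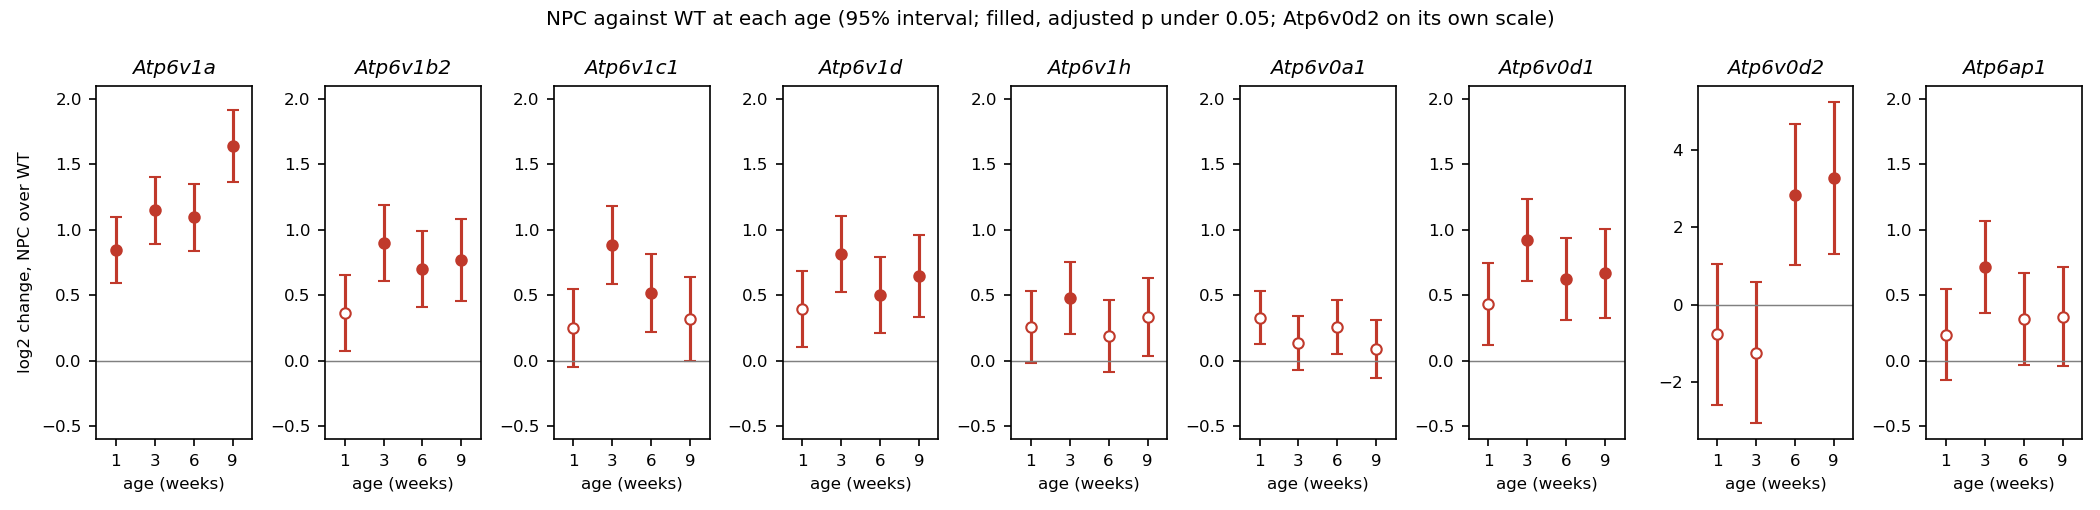
The log2 change of NPC over WT (vertical axis) at each age in weeks (horizontal axis) for the 9 tested members, with 95% intervals from the limma fit of 31 libraries; filled points have an adjusted p under 0.05. Atp6v1a is filled at all 4 ages and reaches 1.64 at 9 weeks, Atp6v0a1 is open at all 4, and Atp6v0d2 has its own scale with far wider intervals.

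In the membrane sector Atp6v0d1 was called at 3 ages and Atp6v0a1 at none. Atp6v0a1, one of the isoforms of the a subunit that lines the path of the protons, held 6412, 8153 and 6262 normalized counts in NPC at 9 weeks and 5993, 5949, 7522 and 6528 in WT, and these overlap. It was called at none of the 4 ages, with folds of 1.26 (1.09 to 1.45), 1.10 (0.953 to 1.27), 1.20 (1.04 to 1.38) and 1.07 (0.913 to 1.24; 95% intervals). The limma adjusted p was 0.11 at 1 week, 0.315 at 3 weeks, 0.0846 at 6 weeks and 0.62 at 9 weeks. DESeq2 on recovered reads called it higher at 1 and 6 weeks (adjusted p = 0.0356 and 0.0375), as did the limma fit without replicate C of NPC at 3 weeks (0.0436 and 0.0427).

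Atp6v0d1, the d subunit of most tissues, sits on the c ring and takes hold of the rotor. It held 4137, 5148, 9373 and 5920.2 normalized counts in NPC at 3 weeks, against 2918, 3371, 3157 and 2969 in WT. At 9 weeks it held 4395, 4249 and 4778 in NPC and 3081, 2534, 2667 and 3004 in WT. No NPC library overlapped WT at any age, and replicate C of NPC at 3 weeks was again the highest. Atp6v0d1 was 1.89-fold (95% interval 1.52 to 2.35, limma adjusted p = 8.39e-05) higher at 3 weeks, 1.54-fold (95% interval 1.24 to 1.92, limma adjusted p = 0.00528) at 6 weeks and 1.59-fold (95% interval 1.26 to 2.01, limma adjusted p = 0.00443) at 9 weeks. The fold at 1 week, 1.35 (95% interval 1.09 to 1.68, limma adjusted p = 0.198), was not called, though it was when only the 1-week groups were fitted (limma adjusted p = 0.0408) and without replicate C of NPC at 3 weeks (0.0224). Without NPC 6w replicates B and C the call at 6 weeks was lost (0.184).

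Atp6v0d2 encodes the second d isoform, known from osteoclasts and some macrophages. It was a rare transcript with a different course. At 1 week it held 8.41, 23.6, 49.0 and 156 normalized counts in NPC libraries A to D and 18.5, 42.0, 91.5 and 190.0 in WT libraries A to D. The groups overlapped, but both had the same order of letters, and NPC was lower than WT in 4 of 4 same-lettered pairs. As reads the NPC libraries held 275 and the WT libraries 413, a ratio per depth of 0.654 (95% interval 0.559 to 0.763, counting error only). Between libraries the limma fold was 0.591 (95% interval 0.168 to 2.08, limma adjusted p = 0.864), an interval that spans 1. The difference was not called with the replicate block either (limma adjusted p = 0.788). At 3 weeks it held 0, 2.13, 0 and 1.05 in NPC and 1.03, 8.53, 4.16 and 0.959 in WT, near the floor of detection in both. As reads this is 3 in NPC and 16 in WT, a ratio per depth of 0.202 (95% interval 0.0377 to 0.704, counting error only), and it was not called (limma adjusted p = 0.304).

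At 6 weeks Atp6v0d2 held 11.7, 14.9, 54.0 and 0.977 normalized counts in NPC and 0, 0, 2.96 and 1.08 in WT, so 3 of 4 NPC libraries stood above all WT libraries. At 9 weeks it held 6.67, 22.3 and 23.3 in NPC and 1.02, 1.05, 0.992 and 0 in WT, with no overlap. As reads, NPC libraries at 9 weeks held 52 and WT libraries 3, a ratio per depth of 24.6 (95% interval 7.97 to 123, counting error only). At 6 weeks they held 69 and 5, a ratio of 15.2 (6.22 to 48.4, counting error only). Between libraries the limma fold was 7.19 (95% interval 2.04 to 25.3) at 6 weeks and 9.63 (95% interval 2.47 to 37.5) at 9 weeks. NPC was called higher at both ages (limma adjusted p = 0.0272 at 6 weeks and 0.0156 at 9 weeks), and these calls were fragile. The one at 6 weeks was lost in 8 alternatives, among them without NPC replicate C (limma adjusted p = 0.146). The one at 9 weeks was lost without NPC replicate B or C (0.0666 and 0.0688) and with a pseudocount of 10 (0.115).

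The ratio of Atp6v0d2 to Atp6v0d1 within a library, in which the size factor nearly cancels (1 was added to each value), averaged -8.10 ± 0.924 on the log2 scale in NPC at 9 weeks and -10.7 ± 0.584 in WT (SD, n = 3 and 4). Even in the library with the highest ratio, in WT at 1 week, it was -4.72. The difference of 2.60 gave an exact two-sided permutation p of 0.0571, the smallest that 3 against 4 libraries allow. At 6 weeks the difference, NPC minus WT, was 2.22 (permutation p = 0.0857). It went the other way at 1 week, -1.19 (permutation p = 0.286), and at 3 weeks, -2.15. At 3 weeks the genotypes did not overlap (permutation p = 0.0286), but Atp6v0d2 rested on 3 reads in NPC and 16 in WT. Over the 5 comparisons made with this ratio, the adjusted p was 0.143 at 3, 6 and 9 weeks. It was 0.357 at 1 week and 0.381 for PLX5622 against control, and no difference in the ratio passed. At 9 weeks none could, since the smallest possible p lies above the threshold. With 4 against 4 libraries the smallest p is 0.0286, reached at 3 weeks, and a pass also needed low p in other comparisons. No conclusion on the ratio between genotypes is therefore drawn from the adjusted p.

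Atp6v0c, the proteolipid of the c ring, was listed at 0 to 5.75 normalized counts in the 41 libraries and could not be tested. NPC libraries at 9 weeks held 0, 0 and 0.933 and WT libraries 0 in all 4. Atp6v0d1, whose product sits on this ring, stood at 4249 to 4778 in the same NPC libraries. In the GENCODE M21 annotation 9.24% of the 75-base stretches of Atp6v0c transcripts also occur in 2 pseudogenes, Atp6v0c-ps2 and Atp6v0c-ps1. The other stretches occur in no transcript of another gene, and 0% of its exonic bases overlap another gene. Why its value was so low, and whether the authors' counting had a part in it, was not tested.

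Atp6ap1, the accessory protein Ac45 that guides assembly and sorting of the pump, had the highest level per kb of exon of the members. It held 24248, 33863, 57779 and 30063 normalized counts in NPC at 3 weeks, against 19309, 20741, 19788 and 24810.5 in WT, and the lowest NPC library lay within the WT range. Atp6ap1 was 1.64-fold (95% interval 1.29 to 2.09, limma adjusted p = 0.00337) higher at 3 weeks. This call was lost when only the 3-week groups were fitted (limma adjusted p = 0.114); it held under the other 20 alternatives, also without replicate C of NPC, the highest library (0.0159). Its folds of 1.15 (95% interval 0.901 to 1.46, limma adjusted p = 0.757), 1.25 (95% interval 0.979 to 1.59, limma adjusted p = 0.225) and 1.26 (95% interval 0.973 to 1.64, limma adjusted p = 0.221) at 1, 6 and 9 weeks were not called. At 9 weeks the genotypes did not overlap, and Atp6ap1 was called when only those groups were fitted (limma adjusted p = 0.00939).

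Upstream sequence is shown for the 3 members that held a motif of known lysosomal regulators, CACGTG or a close variant, of the 6 members with a window. Factors of the MiT-TFE family, such as TFEB, bind this E-box within a longer palindrome upstream of many lysosomal genes. The window ran from 250 bases before to 50 bases after each annotated start (RefSeq, GRCm38.p6), read on both strands; Atp6v1b2, Atp6v1c1, Atp6v1h and Atp6v0d2 had no window. The sequences below run 5′ to 3′ in the direction of the gene, with the motif in capitals.
Atp6v1a, chr16:44139364-44139431, minus strand: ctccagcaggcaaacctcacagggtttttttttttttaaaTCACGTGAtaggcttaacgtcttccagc
Atp6v0d1, chr8:105566061-105566108, minus strand: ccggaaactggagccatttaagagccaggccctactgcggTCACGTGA
Atp6v0c, chr17:24169451-24169507, minus strand: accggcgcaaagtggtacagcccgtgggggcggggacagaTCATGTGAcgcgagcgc

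In Atp6v1a the palindrome TCACGTGA lay 132 to 125 bases before the start, and in Atp6v0d1 it began 4 bases before it. Of the 6 members with a window, 2 held CACGTG, both within TCACGTGA, so these 2 searches overlap. Of all 27025 genes with a window, 8.09% held CACGTG and 1.12% held TCACGTGA. Atp6v0c held the variant TCATGTGA, found in 1.15% of all genes. Atp6v1d, Atp6v0a1 and Atp6ap1 held none of the 3 motifs in their windows. Of 25 lysosomal enzymes and membrane proteins with a window, 32% held CACGTG and 12% TCACGTGA. Of 13 other V-ATPase genes with a window, Atp6v0e held TCACGTGA and was called higher at 3 weeks but not at 6 or 9. Atp6v0b held CACGTG, and its NPC libraries lay below WT at 9 weeks without a call. Atp6v1a and Atp6v0d1 held the palindrome and were called higher in NPC at 3, 6 and 9 weeks, and Atp6v1d was called higher at these ages without it. A match is a description and not a bound site.

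The other V-ATPase genes filled in the picture. Of 15, 11 were tested. At 3 weeks 5 were higher and 1 lower in NPC, at 6 weeks 2 and 1, at 9 weeks 3 and 1, and at 1 week 0 and 0. Over all genes tested, 14.3%, 8.76% and 11.2% were called higher at 3, 6 and 9 weeks, and 12.6%, 6.5% and 7.77% lower. The count of 1 lower gene of 11 thus sets the list little apart. Atp6v1e1 and Atp6v1g1 build the outer stalks. Atp6v1g1 was 2.76-fold (95% interval 1.96 to 3.88, limma adjusted p = 6.54e-05) higher at 3 weeks, 1.78-fold at 6 weeks and 2.07-fold (95% interval 1.43 to 2.99, limma adjusted p = 0.00417) at 9 weeks, and 12.5% of its transcript stretches are shared with 2 other genes, which makes its level uncertain. Atp6v1e1 was 1.54-fold (95% interval 1.28 to 1.86, limma adjusted p = 0.00116) higher at 3 weeks, 1.41-fold at 6 weeks and 1.35-fold at 9 weeks. Without NPC 6w replicates B and C neither was called at 6 weeks (limma adjusted p = 0.376 for Atp6v1g1 and 0.222 for Atp6v1e1), and leaving out single libraries also ended the call of Atp6v1e1 at 9 weeks (up to 0.108).

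Atp6v1f, a rotor gene, was 2.07-fold (95% interval 1.45 to 2.95, limma adjusted p = 0.00346) higher at 3 weeks and 1.71-fold (95% interval 1.17 to 2.51, limma adjusted p = 0.0436) at 9 weeks. With only the 3-week groups fitted, the calls of Atp6v1f and of 2 further genes named next, Atp6v0e and Atp6ap2, were lost (limma adjusted p = 0.0908, 0.135 and 0.106). The call of Atp6v1f at 9 weeks was lost without NPC replicate A, B or C (limma adjusted p = 0.168, 0.0714 and 0.0870). The small V0 subunit gene Atp6v0e and the accessory gene Atp6ap2 were called higher at 3 weeks, with folds of 2.09 (95% interval 1.38 to 3.16, limma adjusted p = 0.00947) and 1.62 (95% interval 1.28 to 2.05, limma adjusted p = 0.00337). Without NPC 3w replicate C the call of Atp6v0e at 3 weeks was lost (limma adjusted p = 0.0601), and both genes were called higher at 9 weeks (0.0354 for Atp6v0e and 0.0156 for Atp6ap2). Atp6v0b, a proteolipid of the membrane ring, held 9265, 8650.5 and 7988 normalized counts in NPC at 9 weeks and 13132, 11319, 9885 and 12133 in WT. All NPC libraries lay below all WT libraries, yet the NPC to WT ratio of 0.746 (95% interval 0.560 to 0.994, limma adjusted p = 0.154) was not called. It was called lower without NPC 3w replicate C (limma adjusted p = 0.0114), with only the 9-week groups fitted (0.00742), with array weights (0.00530) and with libraries rescaled to the same total (0.0457). Of the exonic bases of Atp6v0b 11.8% overlap the antisense gene Gm12841, whose reads cannot be told apart without strand. Atp6v1b1, Atp6v1e2 and Atp6v1g3 were listed at 0 in all 41 libraries and Atp6v0a4 at 2.54 or less; Atp6v1b1 and Atp6v0a4 are known from kidney cells and Atp6v1e2 from testis.

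**Figure D3:**
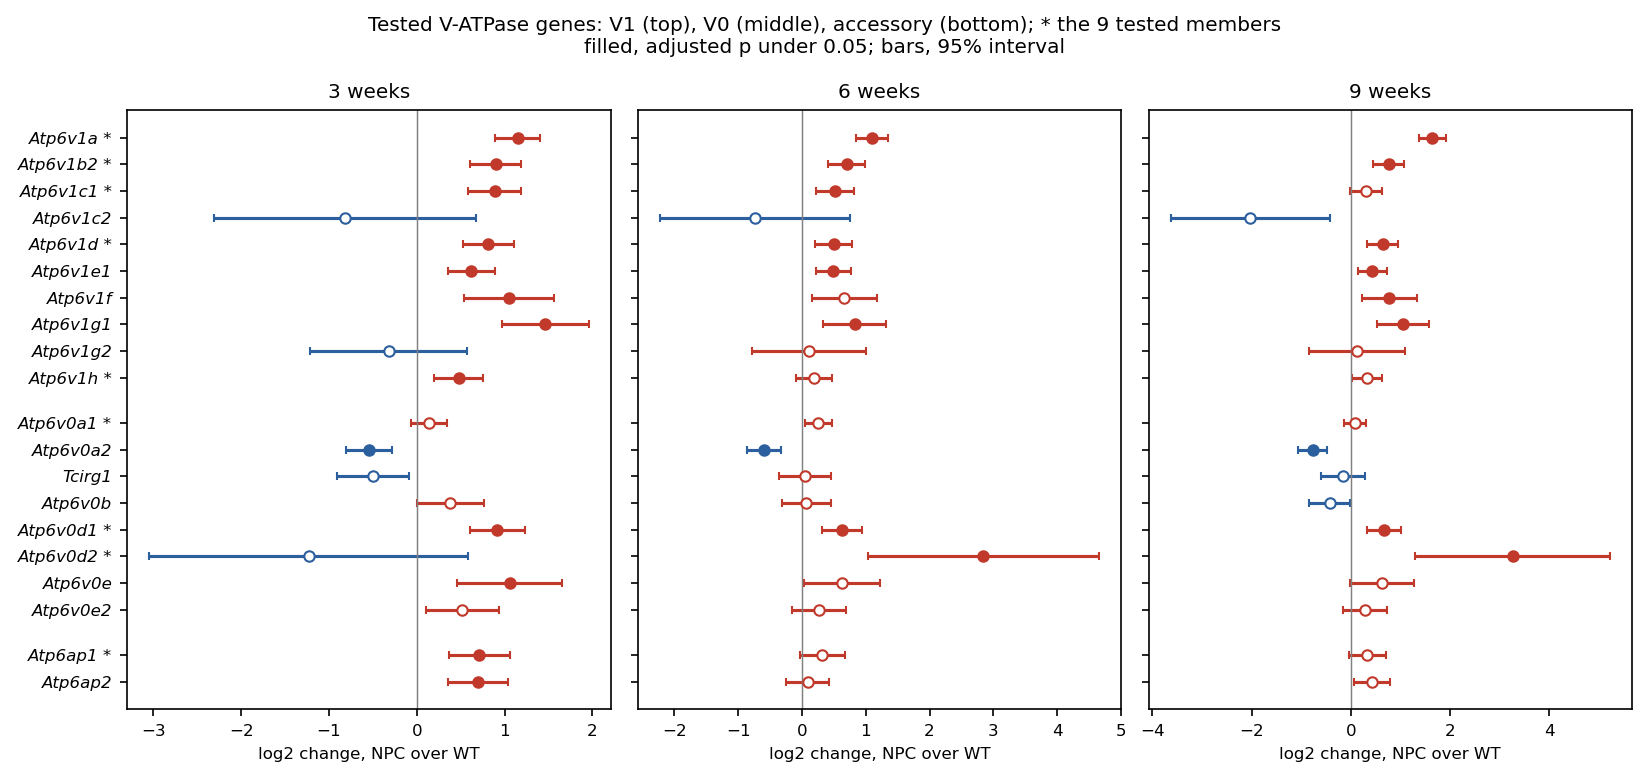
The log2 change of NPC over WT (horizontal axis, one scale per panel) at 3, 6 and 9 weeks for the 20 tested V-ATPase genes, with 95% intervals; filled points have an adjusted p under 0.05, and members carry a star. Atp6v0a2 is the only filled point left of 0 in each panel.

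The a subunit, which steers the pump to its organelle, has several isoforms, of which Atp6v0a2 alone was called, and it was lower in NPC. Atp6v0a2, known from the Golgi and endosomes, held 9120.4, 9020.3 and 7355 normalized counts in NPC at 9 weeks, against 13567, 14372, 16458 and 13493 in WT. At 3 weeks it held 10547, 11843, 11049 and 9090.3 in NPC and 17043, 14516, 14406 and 16018 in WT. All NPC libraries lay below all WT libraries at 3, 6 and 9 weeks. Its NPC to WT ratio was 0.685 (95% interval 0.571 to 0.821, limma adjusted p = 0.00288) at 3 weeks, 0.661 (95% interval 0.552 to 0.793, limma adjusted p = 0.00146) at 6 weeks and 0.586 (95% interval 0.482 to 0.714, limma adjusted p = 0.000152) at 9 weeks. All 3 calls held under every alternative run, with adjusted p up to 0.0499. Of its exonic bases 9.86% overlap genes on the other strand, 4930404A12Rik and Gm24854, whose reads cannot be told apart without strand.

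Tcirg1, the a3 isoform of lysosomes and of the osteoclast border, was called at none of the 4 ages, with an NPC to WT ratio of 0.707 (95% interval 0.532 to 0.939, limma adjusted p = 0.0618) at 3 weeks and 0.903 (95% interval 0.665 to 1.23, limma adjusted p = 0.701) at 9 weeks. At 3 weeks it was called lower without NPC replicate A (limma adjusted p = 0.0116), with array weights (0.0422) and with libraries rescaled to the same total (0.0423). Per kb of exon, the 3 a isoforms stood at 1059 ± 160.4 normalized counts for Atp6v0a1, 1264 ± 147 for Atp6v0a2 and 2982 ± 197 for Tcirg1 in NPC at 9 weeks. In WT at 9 weeks they stood at 991 ± 112, 2152 ± 206 and 3304 ± 265 (SD, n = 3 in NPC and 4 in WT). Tcirg1 was thus the highest a isoform in both genotypes at that age; Atp6v0a2 lay apart from Atp6v0a1 in WT, and the SDs of the 2 overlapped in NPC.

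**Figure D4:**
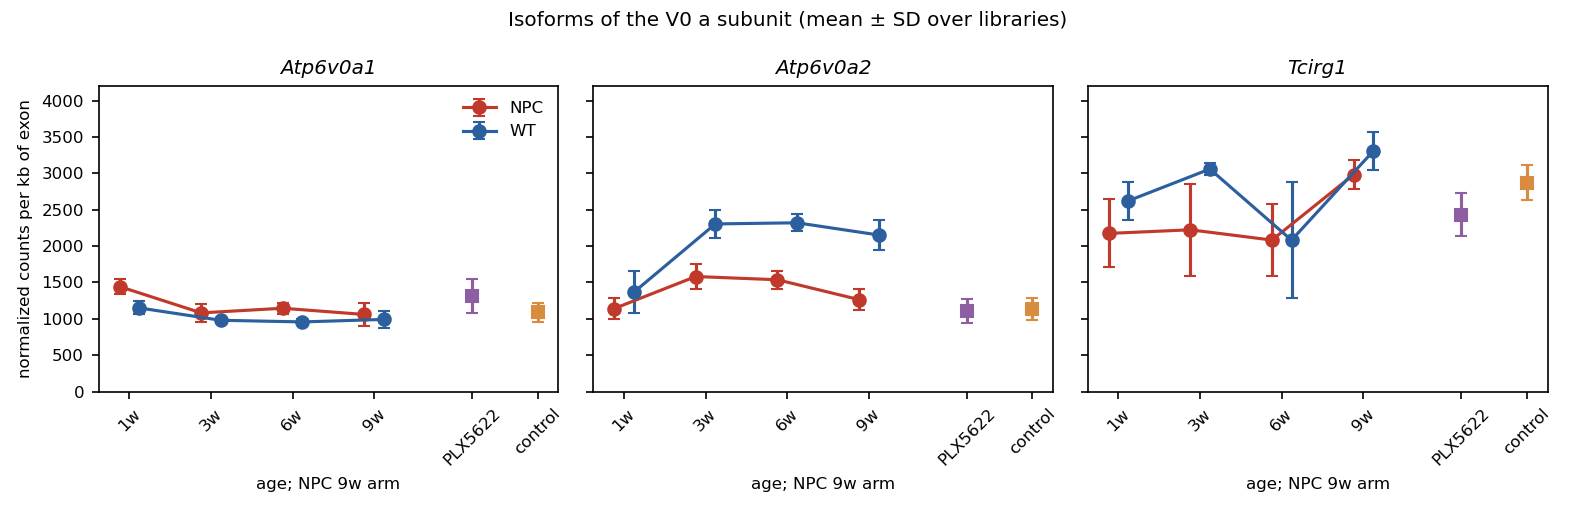
Normalized counts per kb of exon (vertical axis, from 0) of the 3 abundant a subunit isoforms, as mean ± SD over libraries, in NPC (red) and WT (blue) at 1, 3, 6 and 9 weeks and in the PLX5622 (purple) and control (orange) groups of NPC mice at 9 weeks. Atp6v0a2 stands at 1264 in NPC and 2152 in WT at 9 weeks.

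Levels of different members were compared per kb of exon. In NPC at 9 weeks Atp6ap1 led with 9289 ± 820.3 normalized counts per kb, then Atp6v0d1 with 2495 ± 152 and Atp6v1b2 with 1945 ± 176. Atp6v1c1 with 1479.8 ± 192 and Atp6v1a with 1358 ± 141 came next and lay within an SD of each other, before Atp6v0a1 with 1059 ± 160.4. Atp6v1d with 509 ± 18.8 and Atp6v1h with 232 ± 12.2 were the lowest of the abundant members, far above Atp6v0d2 with 6.42 ± 3.44.

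In WT at 9 weeks the order of these levels per kb was the same at both ends but not in the middle. Atp6ap1 led with 7335 ± 218 and Atp6v0d1 followed with 1574 ± 147. Atp6v1c1 at 1182 ± 41.5, Atp6v1b2 at 1143 ± 98.3 and Atp6v0a1 at 991 ± 112 did not fall into a clear order, since neighbours lay within an SD or close to it. Atp6v1a at 435 ± 41.7 came after them, ahead of Atp6v1d at 326 ± 22.5. The A and B subunits, which share the ATPase head in equal number, thus stood at 1358 for Atp6v1a beside 1945 for Atp6v1b2 in NPC and at 435 beside 1143 in WT, per kb.

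Members were called with age in both genotypes, mostly between 1 and 3 weeks. In NPC at 3 against 1 week, 2 members were higher and 2 lower, beside 25% of all genes called, 12.2% higher and 12.8% lower. Without Atp6v0d2, which passed the filter through the groups in which it was high, 1 was lower. Atp6v1c1 was 1.86-fold (95% interval 1.52 to 2.29, limma adjusted p = 2.73e-05) higher and Atp6ap1 1.58-fold (95% interval 1.24 to 2.01, limma adjusted p = 0.00479). Atp6v0a1 fell to 6184 to 8137 normalized counts at 3 weeks, against 9022 to 10419.6 at 1 week, a ratio of 0.747 (95% interval 0.648 to 0.862, limma adjusted p = 0.00246). Atp6v0d2 fell to 3 reads in 4 libraries at 3 weeks, against 275 at 1 week, a ratio per depth of 0.0118 (95% interval 0.00243 to 0.0350, counting error only). Between libraries its ratio was 0.0434 (95% interval 0.0123 to 0.153, limma adjusted p = 0.000316). With only these groups fitted, the calls of Atp6v0a1 and Atp6ap1 were lost (limma adjusted p = 0.0752 and 0.124), and without NPC 3w replicate A Atp6v1a was called higher too (0.0470).

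In WT at 3 against 1 week 0 members were higher and 2 lower, beside 34.1% of all genes called, 15.7% higher and 18.4% lower. Without Atp6v0d2 1 was lower. Atp6v0d1 held 2918, 3371, 3157 and 2969 normalized counts at 3 weeks, against 4415, 4377, 4299 and 5042 at 1 week, with a ratio of 0.685 (95% interval 0.551 to 0.852, limma adjusted p = 0.0066). Atp6v0d2 held 16 reads at 3 weeks against 413 at 1 week, a ratio per depth of 0.0384 (95% interval 0.0217 to 0.0631, counting error only). Between libraries its ratio was 0.0603 (95% interval 0.0171 to 0.212, limma adjusted p = 0.00071). With libraries rescaled to the same total, a step that shifted the all-gene median by -0.108 (log2), 6 members were called lower in this comparison. Without replicate C of NPC at 3 weeks 4 were, with Atp6v1b2 and Atp6v0a1 (limma adjusted p = 0.0346 and 0.0475); without WT 1w replicate A it was 3, with Atp6v0a1 (0.0442). NPC and WT thus both had less Atp6v0d2 at 3 weeks, and the change of its genotype effect between 1 and 3 weeks was not called (limma adjusted p = 0.853).

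Between 3 and 9 weeks few members were called. In NPC at 9 against 3 weeks 1 member, Atp6v0d2, was higher, beside 4.41% of all genes called and 2.31% called higher, with 52 reads at 9 weeks against 3 at 3 weeks (ratio per depth 22.9, 95% interval 7.43 to 115, counting error only; limma adjusted p = 0.0395). Leaving out any 1 NPC library at 9 weeks or NPC replicate A or C at 3 weeks ended that call (limma adjusted p = 0.0546 to 0.148). Of the 8 other tested members 0 were called, and without NPC 3w replicate A Atp6v0d1 was called lower at 9 than at 3 weeks (0.0261). In WT at 9 against 3 weeks limma, edgeR and DESeq2 called 0 members, beside 0.477% of all genes called by limma, 0.228% higher and 0.249% lower. At an unadjusted p under 0.05 there were 0 members, beside 1026 of all 14046 genes tested.

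The test of whether the genotype effect itself changed with age found no member, between 1 and 3 weeks (1.06% of all genes called, 0.861% higher and 0.199% lower) or between 3 and 9 weeks (0.456%, 0.263% higher and 0.192% lower). At an unadjusted p under 0.05 there were 5 and 3 members, beside 2525 and 1586 of all 14046 genes tested. Of the members, edgeR called 0 in both and DESeq2 1 in each. For 3 minus 1 week, 5 of the 9 log2 differences had 95% intervals above 0, as for Atp6v1c1 with 0.64 (0.22 to 1.06; limma adjusted p = 0.133). Atp6v1c1 passed for that difference in DESeq2 (adjusted p = 0.0422) and without NPC 3w replicate A (limma adjusted p = 0.0459). For 9 minus 3 weeks Atp6v0d2 had a log2 difference of 4.50 (1.83 to 7.17; limma adjusted p = 0.128), which DESeq2 on recovered reads called (adjusted p = 0.0221).

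PLX5622 did not move any member past the threshold: 0 of 9 were called, beside 0.947% of all 12877 genes tested in that arm, 0.637% higher and 0.311% lower. At an unadjusted p under 0.05 there was 1 member, beside 1931 of the 12877 genes, and edgeR and DESeq2 on recovered reads called 0 members. Atp6v1a held 8841, 6169.8, 7377, 6643 and 8095 normalized counts with PLX5622 and 10493, 8389, 7547, 7751 and 8403 in control. These overlap, and the ratio was 0.871 (95% interval 0.723 to 1.05, limma adjusted p = 0.482). Atp6v1d had the lowest ratio among the abundant members, 0.810 (95% interval 0.669 to 0.982, limma adjusted p = 0.286), with 1988, 2011, 2157, 1467 and 2286 normalized counts with PLX5622 and 2699, 2621, 2382, 2349 and 2093 in control. Replicate 4 of PLX5622 was the low one, and the groups overlap.

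Among the other abundant members the ratio of PLX5622 to control was 0.978 (0.861 to 1.11) for Atp6v1b2, 0.854 (0.703 to 1.04) for Atp6v1c1, 1.03 (0.899 to 1.17) for Atp6v1h and 0.999 (0.881 to 1.13) for Atp6ap1, with 95% intervals. In V0 it was 1.20 (0.985 to 1.46) for Atp6v0a1 and 0.961 (0.801 to 1.15) for Atp6v0d1. Over the 8 abundant members, Atp6v1a and Atp6v1d included, these intervals ran from 0.669 to 1.46. Atp6v0d2 held 0, 6.78, 0, 0 and 31.5 with PLX5622 and 13.3, 13.1, 14.2, 12.3 and 0 in control, which as reads is 41 against 59, a ratio per depth of 0.705 (0.461 to 1.07, counting error only). Between libraries its ratio was 0.362 (95% interval 0.0571 to 2.29, limma adjusted p = 0.625). Summed monocyte and neutrophil markers were 818 to 125990 normalized counts with PLX5622, highest in replicate 3, against 370 to 7069 in control. Summed border-associated macrophage markers were 27222 to 51112 with PLX5622 and 19689 to 30024 in control. Leaving out any of the 10 libraries, replicate 3 of PLX5622 included, left 0 members called.

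**Figure D5:**
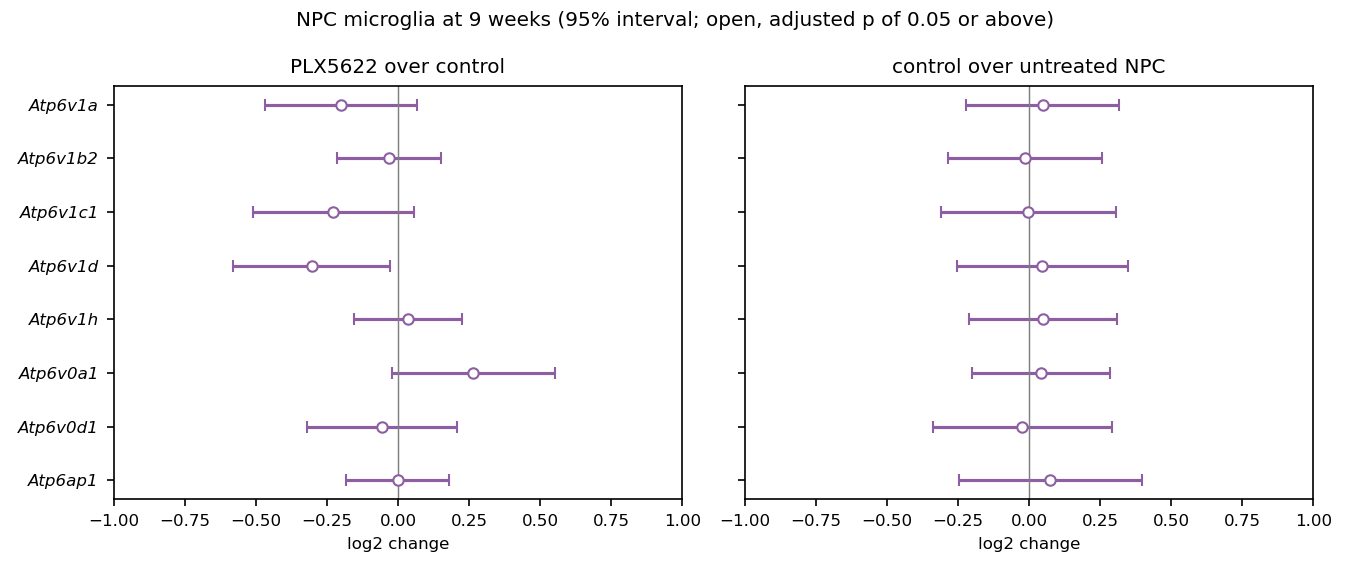
The log2 change (horizontal axis) of the 8 abundant members for PLX5622 over control (left) and for control over untreated NPC mice (right), all at 9 weeks, with 95% intervals. Open points mark an adjusted p of 0.05 or above, and all 16 points are open.

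NPC control mice and untreated NPC mice of 9 weeks came from separate arms, and 0 members differed between them, beside 0% of all 14312 genes tested; over all genes 598 had an unadjusted p under 0.05, edgeR called 0 and DESeq2 1. The abundant members had ratios of control to untreated between 0.984 for Atp6v0d1 and 1.05 for Atp6ap1. Atp6v1a stood at 8517 ± 1169 in control and 8207 ± 853 in untreated NPC mice (SD, n = 5 and 3). Of the other V-ATPase genes 10 were tested in the PLX5622 arm, and 0 were called by limma. At an unadjusted p under 0.05 there were 3 of them, beside 1931 of all 12877 genes tested in that arm. Atp6v1g1 had the smallest p, at 0.779 (95% interval 0.667 to 0.911, limma adjusted p = 0.126) times control, and DESeq2 called it lower (adjusted p = 0.0189).

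Genes that work with the pump were described in lists. Of 14 genes of the Ragulator and Rag GTPase system, 1 was higher and 0 lower at 1 week, 6 and 1 at 3 weeks, 3 and 1 at 6 weeks, and 4 and 1 at 9 weeks. Over all genes tested, 0.876%, 14.3%, 8.76% and 11.2% were called higher at these ages, and 0.577%, 12.6%, 6.5% and 7.77% lower. The count of 1 lower gene of 14 is thus near the share over all genes. Rragd, a GTPase that is itself a known TFEB target, stood at 588 ± 51.4 normalized counts in NPC at 9 weeks and 30.9 ± 17.7 in WT (SD, n = 3 and 4), 21.1-fold (95% interval 12.5 to 35.5, limma adjusted p = 6.1e-10) higher. Its partner Rragc was 1.94-fold (95% interval 1.57 to 2.40, limma adjusted p = 2.15e-05) higher and Fnip2, a cofactor of the Rag regulator folliculin, 3.39-fold (95% interval 2.08 to 5.54, limma adjusted p = 0.000417).

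Of the 4 MiT-TFE factors, 0 were called at 1, 3 and 6 weeks, and 1, Tfec, was higher at 9 weeks. Over all genes tested, 1.45%, 26.9%, 15.3% and 19% were called at 1, 3, 6 and 9 weeks, so counts among 4 genes set the family little apart. Tfec, the family member typical of macrophages, stood at 92.9 ± 15.5 normalized counts in NPC and 22.0 ± 17.0 in WT at 9 weeks (SD, n = 3 and 4), 5.28-fold (95% interval 1.64 to 17.0, limma adjusted p = 0.0398) higher. That call was lost without any 1 NPC library and without WT replicate B, C or D (limma adjusted p = 0.0579 to 0.155). Tfeb and Tfe3, which enter the nucleus when lysosomes are stressed, had NPC to WT ratios of 0.838 (95% interval 0.704 to 0.998, limma adjusted p = 0.158) and 0.963 (95% interval 0.819 to 1.13, limma adjusted p = 0.793) at 9 weeks. With libraries rescaled to the same total Tfeb was called lower (0.0231). Mitf had a PLX5622 to control ratio of 0.577 (95% interval 0.431 to 0.773, limma adjusted p = 0.0788), which DESeq2 called (adjusted p = 0.0112). These are RNA levels and say nothing of where the proteins were.

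Among 31 lysosomal enzymes and membrane proteins, 3 were higher at 1 week, 24 at 3 weeks, 22 at 6 weeks and 21 at 9 weeks, and 0 were lower at any of them. Over all genes tested, the share called higher was 0.876%, 14.3%, 8.76% and 11.2% at these ages. Their median log2 change at 9 weeks was 0.57, beside 0.65 for the tested V-ATPase members and 0.03 for all genes. The cathepsin Ctsb was 3.17-fold (95% interval 2.47 to 4.08, limma adjusted p = 4.71e-08) higher at 9 weeks, the tetraspanin Cd63 4.64-fold (95% interval 3.14 to 6.84, limma adjusted p = 7.01e-07) and the membrane protein Lamp1 2.07-fold (95% interval 1.71 to 2.51, limma adjusted p = 1.28e-06). In the PLX5622 arm 1 of the 31, the glucuronidase Gusb, was called, at 1.38 (95% interval 1.19 to 1.61, limma adjusted p = 0.0494) times control, and leaving out most single libraries ended that call (limma adjusted p up to 0.149).

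Of 14 tested ion channels and transporters of the lysosome, 4 were higher and 1 lower at 9 weeks, beside 11.2% of all genes called higher and 7.77% lower. Clcn7, the chloride and proton exchanger that balances the charge moved by the pump, was 1.62-fold (95% interval 1.38 to 1.90, limma adjusted p = 4.07e-05) higher. Slc9a9, a sodium and proton exchanger of endosomes, had an NPC to WT ratio of 0.633 (95% interval 0.528 to 0.758, limma adjusted p = 0.000342). The channel Mcoln2 stood at 94.4 ± 33.9 normalized counts in NPC and 4.06 ± 3.69 in WT (SD, n = 3 and 4; limma adjusted p = 0.00067). With PLX5622 Mcoln2 stood at 235 ± 67.0 and in control at 51.1 ± 26.0 (SD, n = 5 each), 5.15-fold (95% interval 2.57 to 10.3, limma adjusted p = 0.0337) higher. The channel Tpcn2 was 1.70-fold (95% interval 1.35 to 2.15, limma adjusted p = 0.0381) higher with PLX5622. Both PLX5622 calls were lost when single libraries were left out (limma adjusted p up to 0.0984 for Mcoln2 and 0.0987 for Tpcn2).

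Of 11 tested factors that assemble or regulate the V-ATPase, 1, 2, 2 and 2 were higher at 1, 3, 6 and 9 weeks and 0 lower. The share of all genes called higher was 0.876%, 14.3%, 8.76% and 11.2% at those ages, so these counts set the list little apart. Wdr7, a partner of the complex that rejoins V1 with V0, was 1.90-fold (95% interval 1.38 to 2.61, limma adjusted p = 0.00362) higher at 9 weeks. Oxr1, a protein that binds V1 in yeast and mammals, was 1.37-fold (95% interval 1.16 to 1.62, limma adjusted p = 0.0066) higher; without NPC 9w replicate B its limma adjusted p was 0.0758. Of 9 tested genes of osteoclasts and multinucleation, the setting in which Atp6v0d2 is best known, 4 were higher and 0 lower at 9 weeks, but the median log2 change was -0.15, since the other 5 lay below 0. At 6 weeks 3 were higher and 0 lower, with a median of -0.25. The shares of all genes called higher are given above, and 12.6%, 6.5% and 7.77% were called lower at 3, 6 and 9 weeks. At 3 weeks 3 were higher and 2, Nfatc1 and Tnfrsf11a, lower, with NPC to WT ratios of 0.752 (95% interval 0.608 to 0.930, limma adjusted p = 0.0422) and 0.681 (95% interval 0.556 to 0.835, limma adjusted p = 0.00636). The 4 that were higher at 9 weeks include the acid phosphatase Acp5, 12.5-fold (95% interval 7.60 to 20.5, limma adjusted p = 7.13e-09) higher, the glycoprotein Gpnmb, 19.0-fold (95% interval 5.64 to 64.2, limma adjusted p = 0.000575), and the carbonic anhydrase Car2, 6.46-fold (95% interval 2.82 to 14.8, limma adjusted p = 0.00124).

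Likeness of pattern was measured over the 10 group means as the root mean square difference of centred log2 values, among 10719 genes. The genes nearest to the mean of the 9 members other than Atp6v0d2, the near-absent Atp6v0c included, were Spg21 (0.0427), Atp6v1e1 (0.0446), Vps26a (0.0648), Mtpn (0.0649) and Ctsa (0.0670), on a pattern that spans 0.81 log2 units. Atp6v1e1, a pump subunit outside the members, was thus the second nearest of all genes compared. The genes nearest to Atp6v0d2 were Gap43 (0.660), Dner (0.688), Brca1 (0.717), Dtl (0.747) and Mybl2 (0.786), on a pattern that spans 5.28 log2 units, so none of them lay close. These are descriptions over 10 points that share libraries.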

How the data were processed

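RNA of 41 sorted microglia samples was measured with SMART-seq v4 and paired sequencing, per the labels' protocols. The authors deposited normalized counts, which are here taken as a signal: gene counts over a size factor, 1 per library. FastQC 0.11.4, STAR 2.5.1b, DESeq2 and build mm9 are named in the submitters' processing notes; the annotation and counter are not given in the sources used here. Each library's values were whole multiples of 1 step (100% within a tolerance of 1e-06), which gave 23.2 to 40.5 M recovered reads (1 M is 1e+06). The reads carry no molecular identifiers, so intervals on them cover counting error at most and leave out the spread between mice.

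The test was limma 3.58.1 in R 4.3.3, two-sided, with its trend and robust settings, on log2(value + 1). Genes entered with 10 or more normalized counts in 3 or more libraries of the fit. The 31 untreated libraries were fitted together (14046 genes, 23 residual degrees of freedom), the 10 of the PLX5622 arm apart (12877, 8), and all 41 for control against untreated NPC mice (14312, 31). Adjusted p-values are Benjamini-Hochberg over all genes, with a threshold of 0.05. On the log2(value + 1) scale the change of rare genes is understated. Ratios of Atp6v0d2 to Atp6v0d1 used exact permutation tests. Per-kb levels used GENCODE M21 exon unions, which may differ from the authors' annotation. The statistics were tested on simulated data.

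Whether library letters mark pairs was checked from the correlation of deviations from group means. At 1 week all 4 same-lettered NPC and WT libraries correlated at 0.111 to 0.163 and each matched best with its own letter, so those libraries count as paired; the replicate block left 1 member called there. Labels give no batch.

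Alternatives were pseudocounts of 0.5 and 10, no filter and a filter of 50, other scalings, array weights, fits limited to the groups compared, a replicate block, count tests on the recovered reads (DESeq2 1.42.0, edgeR 4.0.16), and omission of each library in turn; fits without replicate C of NPC at 3 weeks for the other comparisons were added after seeing the data. The members, gene lists and tests were chosen with earlier results of these data known. All 10 members are named; of each list, up to 3 genes with the smallest adjusted p at 9 weeks and up to 2 with PLX5622 may be named, and the 5 nearest genes by pattern. Tmem119, Itgam and the subunit genes Atp6v1f, Tcirg1, Atp6v0e, Atp6ap2, Atp6v0b and those at or near 0, with Nfatc1 and Tnfrsf11a, were named after their values were seen.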

Additional observations from a re-analysis of the deposited data

Results flagged for a closer look

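Among 81 sets of 4 or 5 libraries, 1 for each tested member and each group of that size, 6 held a library far from the others by Dixon's criterion; chance flags about 1 in 20. Atp6v1a in NPC at 1 week was 6661 normalized counts in replicate D, against 5518 to 5611 in the other 3. Atp6v1d in WT at 3 weeks was 1416 in replicate A, against 1642 to 1680. Atp6v0d1 in WT was 5042 in replicate D at 1 week, against 4299 to 4415, and 2690 (2689.8) in replicate C at 6 weeks, against 3281 to 3415. Atp6v0d2 was 0 in control replicate 5, against 12.3 to 14.2 in the other 4, and 0 in WT replicate D at 9 weeks, against 0.992 to 1.05, which is a difference of 1 read. The calls of Atp6v1a at 1 week and of Atp6v0d1 at 6 weeks held without the library concerned, and Atp6v1d was called at 3 weeks without WT replicate A.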

How the results depend on the processing

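Over 108 changes of single members and 2424 alternative values, 2356 kept their direction and side of the threshold, 32 lost a call, 36 gained one and 0 reversed. Why the counts below moved was not tested. For members called in NPC against WT, array weights gave 4 at 1 week and 8 at 9 weeks, DESeq2 2 and the fit limited to the groups compared 2 at 1 week, and the fit without both NPC 6w libraries B and C 1 at 6 weeks. For NPC at 3 against 1 week the limited fit called 2. For NPC at 9 against 3 weeks a pseudocount of 10, quantile normalization and the limited fit called 0. For WT at 3 against 1 week rescaling to the same total called 6, quantile normalization 4 and array weights 5. For the change of the genotype effect, DESeq2 called 1 member for 3 minus 1 week, and DESeq2 and array weights 1 each for 9 minus 3 weeks.

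Over all genes, NPC against WT gave 528 calls with array weights and 391 with DESeq2 at 1 week, 769 in the limited fit at 3 weeks, 872 without both NPC 6w libraries B and C at 6 weeks, and 4790 with array weights and 4429 in the limited fit at 9 weeks. NPC at 3 against 1 week gave 1459 in the limited fit. NPC at 9 against 3 weeks gave 1212 with array weights, 1042 with DESeq2 and 20 in the limited fit, and WT 479, 195 and 222 with the same 3. The genotype effect at 3 minus 1 week gave 448, 479 and 81. At 9 minus 3 weeks it gave 346, 245 and 17 with those, 103 with a pseudocount of 10, 100 with quantile normalization and 8 with the replicate block. PLX5622 against control gave 79 without a filter, 435 with array weights, 605 with DESeq2 and 416 with the replicate block. Control against untreated NPC gave 12 without a filter, 191 with array weights and 1 with DESeq2.

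Leaving out 1 library gave 1 to 3 members and 87 to 453 genes for NPC against WT at 1 week (3 members without NPC 3w replicate C, a library of another age), 6 to 7 and 2057 to 5200 at 3 weeks, 4 to 7 and 1524 to 3277 at 6 weeks, and 4 to 6 and 1641 to 3752 at 9 weeks. It gave 4 to 5 and 2817 to 3929 for NPC at 3 against 1 week, 0 to 1 and 151 to 1203 for NPC at 9 against 3, 2 to 4 and 3832 to 5907 for WT at 3 against 1, and 0 and 18 to 181 for WT at 9 against 3. The genotype effect gave 0 to 1 and 62 to 420 at 3 minus 1 week and 0 and 24 to 103 at 9 minus 3, PLX5622 against control 0 and 21 to 465, and control against untreated NPC 0 and 0 to 7. The Atp6v0d2 to Atp6v0d1 ratio differences ranged from -1.88 to -0.54 at 1 week, -2.54 to -1.70 at 3, 1.54 to 3.01 at 6, 2.31 to 3.13 at 9 and -2.26 to -0.95 with PLX5622.

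Rescaling to the same total shifted the all-gene median by -0.143 (log2) at 3 weeks and turned the share of calls that were higher in NPC to 38.1% from 53.1%, and at 9 weeks to 48.8% from 59.1% (median -0.0876); 7 and 5 members stayed called higher. For NPC at 3 against 1 week the share was 24.8% against 48.7% (-0.212), for NPC at 9 against 3 weeks 66.3% against 52.3% (0.109), for WT at 3 against 1 week 32.4% against 46.0% (-0.108) and for WT at 9 against 3 weeks 68.9% against 47.8% (0.0532). For the genotype effect at 3 minus 1 week the median shifted by -0.104. Quantile normalization shifted it by 0.133 for NPC at 3 against 1 week, by -0.136 for NPC at 9 against 3 weeks and by -0.113 for the genotype effect at 9 minus 3 weeks, where 46% of calls were higher against 57.8%.

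The replicate block changed no call of a member: 1 at 1 week, 7 at 3, 6 at 6, 5 at 9 and 0 with PLX5622. Same-lettered libraries did not pair at 3 weeks (r from -0.114 to 0.148), 6 weeks (-0.215 to 0.0558) or 9 weeks (-0.0075 to 0.0736), nor in the PLX5622 arm, where 4 of 5 pairs were over 0.1 and 0 matched best with their own number. Outside the members it ended the calls of Atp6v1e1 (0.0745), Atp6v1f (0.0513) and Tfec (0.0985) at 9 weeks. For the ratio of the d isoforms the block gave adjusted p of 0.312 at each age and 0.562 with PLX5622; with 3, 4 and 5 pairs the smallest unadjusted p is 0.25, 0.125 and 0.0625, so this test could not pass. Depth limits Atp6v0d2 and Atp6v0c, which rest on few reads.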
